A study of Mus musculus with 4 samples.

Results

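The cytochrome P450 genes of the cultured mouse molar tooth germ were followed at 46 probe sets that name 39 genes, out of 12488 probe sets on the array. Members were all probe sets with a single gene symbol that begins with Cyp and a number, Cyp51 left out, whether dim or bright. Por, the reductase that feeds electrons to the microsomal P450 enzymes, was also looked for, and 0 probe sets carried its name in the annotation used, so it is not analysed here. Another 7 probe sets annotated to several P450 genes at once were kept apart.

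The tooth germs were mandibular molars of NMRI mouse embryos at embryonic day 14, grown as explants on filters in DMEM with fetal calf serum for 24 h. The TCDD group received 2,3,7,8-tetrachlorodibenzo-p-dioxin at 1 µM and the control group received the solvent DMSO at 0.65%. No DMSO percentage is recorded for the TCDD arrays, so whether the solvent was matched is not known here. Each group had 2 arrays, and each array carried cRNA from a pool of about 60 explants taken from 3 experiments. Per the labels, 11 µg of RNA went into each replicate 1, 7 µg into DMSO replicate 2 and 8 µg into TCDD replicate 2, and ascorbic acid in the medium is listed for DMSO replicate 2 alone. The labels do not say whether the pools of one group came from different experiments, so the p-values measure the spread between pools only. Whole explants were used, and in such tissue fewer cells of a type and less RNA per cell cannot be told apart.

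Cytochrome P450 enzymes are haem proteins that insert an oxygen atom into their substrates. Some families, chiefly CYP1 to CYP3, act on drugs and pollutants, while others make or break down steroids, bile acids, vitamin D, retinoic acid and fatty acids, and many are most abundant in liver. TCDD is a ligand of the aryl hydrocarbon receptor, which enters the nucleus, pairs with ARNT and binds DNA elements with the core GCGTG. Cyp1a1, Cyp1a2 and Cyp1b1, the CYP1 family, are the textbook P450 targets of this receptor. The comparison asks which members of the family differed after exposure to TCDD and which did not.

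Values are MAS5 signals on a linear scale with a target signal of 100. A signal belongs to its probe set, and levels of different probe sets are not compared. With only 2 arrays per group, precision is limited by their number. The array of DMSO replicate 1 stood apart from the other 3. Its signal was the highest of the 4 arrays at 44% of all 12422 probe sets that are not controls and at 57.6% of the 6639 with a mean signal under 50. Over all probe sets its median signal was 47.1, against 40 to 40.8 on the other arrays. It correlated at r = 0.971 with DMSO replicate 2 across probe sets, while DMSO replicate 2 and TCDD replicate 2 correlated at 0.989. Results below are therefore given with and without that array where it touches them. Most tooth markers had a mean signal of at least 50. All 8 genes of the dental mesenchyme list were measured, 7 of them at that level. Of the 8 genes of the dental epithelium list 7 were measured, 5 of them at that level. The keratin genes Krt14 and Krt5 were dim, with signals of at most 10.8 and 9.6. The 7 measured liver genes had mean signals between 2.45 and 18.4. None of the genes in the tissue lists passed the limma test (adjusted p over all probe sets).

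The stretches just upstream of the 3 CYP1 genes are shown because Cyp1a1 and Cyp1b1 passed the test described below and Cyp1a2, which adjoins Cyp1a1, did not. They are the 250 bases before the RefSeq gene start in GRCm38.p6, read 5′ to 3′ on the strand of the gene, with the core GCGTG or its reverse complement CACGC in capitals.
Cyp1a1, GRCm38.p6 chr9:57697363-57697612, plus strand: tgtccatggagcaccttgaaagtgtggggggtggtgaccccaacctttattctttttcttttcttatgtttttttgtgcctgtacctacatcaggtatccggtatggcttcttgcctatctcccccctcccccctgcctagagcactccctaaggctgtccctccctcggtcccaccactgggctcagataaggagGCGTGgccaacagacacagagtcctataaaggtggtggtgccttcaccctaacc
Cyp1b1, GRCm38.p6 chr17:79715062-79715311, minus strand: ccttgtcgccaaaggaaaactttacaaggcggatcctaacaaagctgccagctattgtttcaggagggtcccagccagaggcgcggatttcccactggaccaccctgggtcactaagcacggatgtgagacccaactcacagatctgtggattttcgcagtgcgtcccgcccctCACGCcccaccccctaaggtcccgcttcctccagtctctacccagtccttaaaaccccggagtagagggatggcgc
Cyp1a2, GRCm38.p6 chr9:57683656-57683905, minus strand: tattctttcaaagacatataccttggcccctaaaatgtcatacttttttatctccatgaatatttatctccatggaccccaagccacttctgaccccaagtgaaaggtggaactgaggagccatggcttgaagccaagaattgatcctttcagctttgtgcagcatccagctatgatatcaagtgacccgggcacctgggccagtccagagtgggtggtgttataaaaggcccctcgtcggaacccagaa
Cyp1a1 had 1 core, which begins 54 bases before the start, and Cyp1b1 had 1, on the opposite strand, which begins 76 bases before it. The window of Cyp1a2 had 0. Cyp1a1 and Cyp1a2 lie next to each other in opposite orientation, with 0 protein-coding genes between them. RefSeq windows were at hand for 31 of the 39 genes, and 4 of these held the core on either strand (12.9%), against 30.9% of 27025 genes of all kinds. Besides Cyp1a1 and Cyp1b1 these were Cyp2b10, with 2 cores, and Cyp4v3, with 1. The longer form TNGCGTG, which contains the core, was in 0 of the 31 and in 4.76% of all genes. The known dioxin-responsive enhancer of Cyp1a1 lies farther upstream than this window, so the matches describe these letters and no more.

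Cyp1a1 and Cyp1b1 rose with TCDD, and no other member of the family passed the test. Of the 46 P450 probe sets 2 passed an adjusted p of 0.05 in limma, both higher, and over all 12422 probe sets tested the share called was 0.0161%, the same 2 probe sets. At an unadjusted limma p under 0.05 there were 4 members, 2 higher and 2 lower, where the background was 3.64% in all, 1.1% higher and 2.54% lower.

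Cyp1a1 encodes a P450 that oxidises polycyclic aromatic hydrocarbons and is nearly silent in most tissues without an inducer. Its probe set 94715_at gave signals of 14.7 and 12.7 with DMSO, and 194.8 and 210.5 with TCDD. The groups were far apart, and within each group the arrays lay close together. Group means were 13.7 ± 1.41 and 203 ± 11.1 (SD, n = 2 each). The difference in log2(signal + 16) was 2.88 ± 0.23 (SE, 95% interval 2.33 to 3.43), with a limma adjusted p of 0.0173. It was positive in all 4 TCDD-DMSO array pairs, between 2.78 and 2.98. Both DMSO signals lie below the added 16, so the fold is compressed. The call depended on having both arrays in each group: limma adjusted p was 1 when DMSO replicate 1 was left out, 0.314 for DMSO replicate 2, 0.107 for TCDD replicate 1 and 0.118 for TCDD replicate 2, while the difference stayed between 2.83 and 2.93.

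Cyp1b1 encodes a P450 that metabolises oestradiol and procarcinogens and is active in embryonic mesenchymal tissues. Its probe set 99979_at gave signals of 98.6 and 77.8 with DMSO, and 519.9 and 455 with TCDD. Again the groups did not overlap, and this transcript was readily measured without the inducer. Group means were 88.2 ± 14.7 and 487 ± 45.9 (SD, n = 2 each). The difference in log2(signal + 16) was 2.28 ± 0.18 (SE, 95% interval 1.85 to 2.70), with a limma adjusted p of 0.0173, and the 4 array pairs lay between 2.04 and 2.51. The limma adjusted p was 0.0331 with TCDD replicate 1 left out and 0.00678 with TCDD replicate 2 left out. It was 1 with DMSO replicate 1 left out (difference 2.42) and 0.314 with DMSO replicate 2 left out (difference 2.13). The sizes of the changes of Cyp1a1 and Cyp1b1 cannot be ranked, since their order depended on the offset. They were 3.79 and 2.46 with 1 added in place of 16, and 1.78 and 1.86 with 64 added. Their 95% intervals at 16 overlap.

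Cyp1a2, the member of the family that is mainly a liver enzyme and metabolises caffeine and aromatic amines, had low signals and did not pass. Probe set 102998_at gave 12.9 and 12.6 with DMSO, and 6.2 and 6 with TCDD. The TCDD signals were the lower ones in every pair, all of them in the dim range. The log2 difference was -0.38 ± 0.16 (SE, 95% interval -0.76 to 0.00), with a limma adjusted p of 0.979. The upper end of that interval corresponds to a TCDD signal of 12.8, close to both DMSO signals.

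Cyp1a1 and Cyp1b1 each have another probe set, and neither showed the rise. Cyp1a1 probe set 161831_at gave signals of 32.5 and 3.6 with DMSO, and 15.5 and 18.5 with TCDD, so the TCDD arrays lay between the DMSO arrays. Its log2 difference was 0.10 ± 0.40 (SE). It was 0.75 ± 0.17 without DMSO replicate 1 and -0.56 ± 0.22 without DMSO replicate 2 (limma adjusted p 1 and 0.389). Cyp1b1 probe set 161368_r_at gave signals of 1.3 and 1 with DMSO, and 0 and 0.1 with TCDD, which is at the bottom of the scale. On these arrays the rise of each gene thus rests on 1 probe set, and the disagreement was not resolved.

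**Figure D1:**
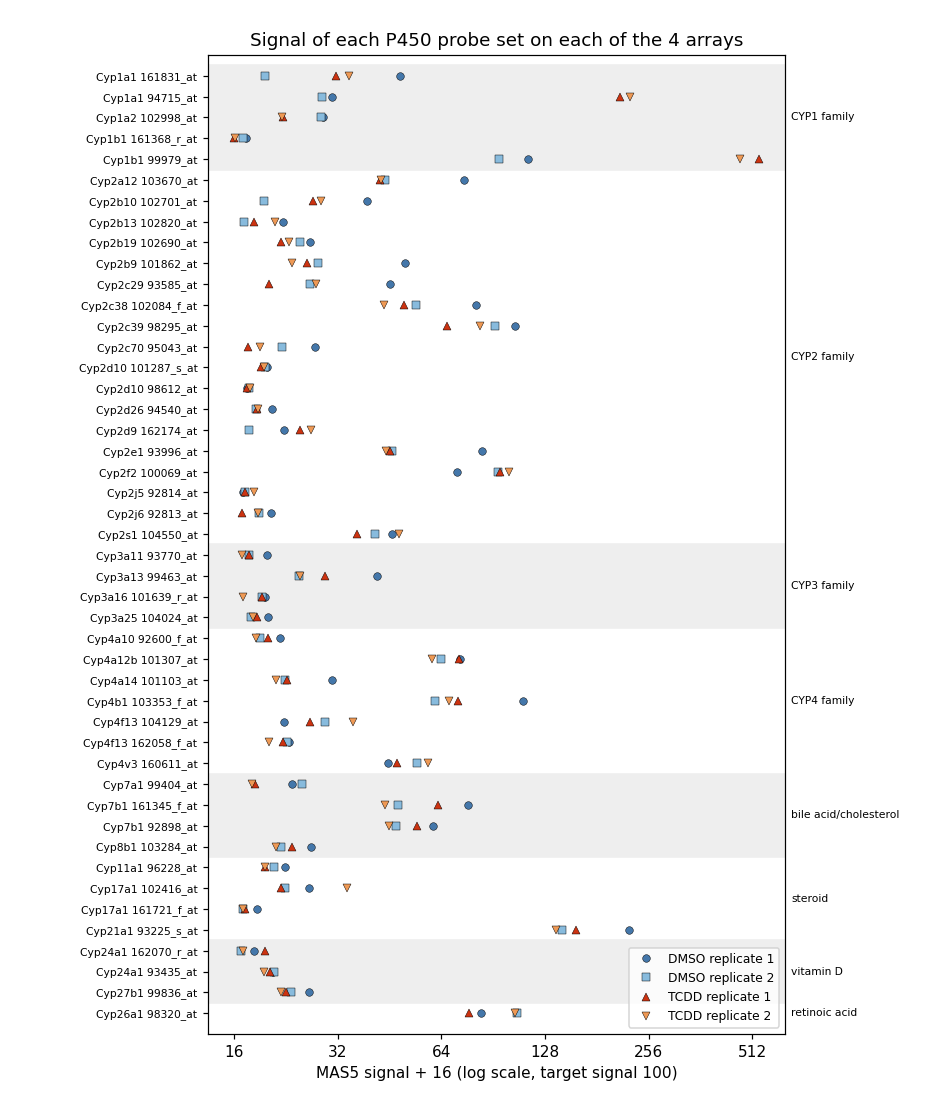
Each row is a P450 probe set, grouped by role, and each symbol its MAS5 signal plus 16 on 1 of the 4 arrays (log axis; circles and squares DMSO, triangles TCDD). At Cyp1a1 94715_at and Cyp1b1 99979_at the TCDD arrays lie far to the right of the DMSO arrays, while in many other rows the array of DMSO replicate 1 is the rightmost.

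Macrophage markers had higher signals in the same contrast, without passing the test. All 8 genes of the list were measured and all 8 had a higher mean in TCDD, with 0 past the limma test. At an unadjusted limma p under 0.05 there were 2, both higher, where the background was 1.1% higher. The groups overlapped at C1qa, Csf1r, Cd68 and Cd14, and the means of Cd14 were 145.4 and 147.55. The summed signals of the 8 were 823.1 and 708.3 on the DMSO arrays and 997.4 and 963.8 on the TCDD arrays, and 0 of the 8 were at 0 on any array. Of the 7 measured liver genes, all dim, 1 was higher and 6 were lower in TCDD. The part of macrophages in the rise of Cyp1a1 and Cyp1b1 was not tested.

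With 16 added, the responsive CYP1 probe sets stood apart from the rest of the family. The same test divided called from other probe sets, so the gap between them is no further support. For all 44 probe sets that did not pass, the upper 95% bound of the log2 difference lay below 1.85, the lower bound of Cyp1b1. It was below 1 for 43 of them, the exception being Cyp1a1 161831_at at 1.03, and the median upper bound was 0.22. The intervals are those of each probe set alone, without adjustment for their number. The gap also depends on the offset. With 1 added, the log2 differences were 2.46 ± 0.21 (SE) for Cyp1b1 and 1.31 ± 0.65 (SE) for Cyp2d9. Cyp1a1 161831_at was then at 0.53 ± 0.83 (SE), and the bounds at that offset were not compared. A change at a probe set near the bottom of the scale would be compressed by the added 16. A probe set that does not detect its transcript would show none. A rise of a few signal units was thus not detectable there, and larger rises also lie within the intervals of other probe sets. The upper bound corresponds to a TCDD signal of 47.0 at Cyp1a1 161831_at, where the DMSO mean was 18.05. At Cyp2f2 it corresponds to 128.8, where the DMSO mean was 66.3. With 16 added, Cyp1a1 94715_at and Cyp1b1 99979_at had the 2 largest log2 differences of all probe sets tested, and the next largest was 1.53, at a probe set of Tiparp.

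**Figure D2:**
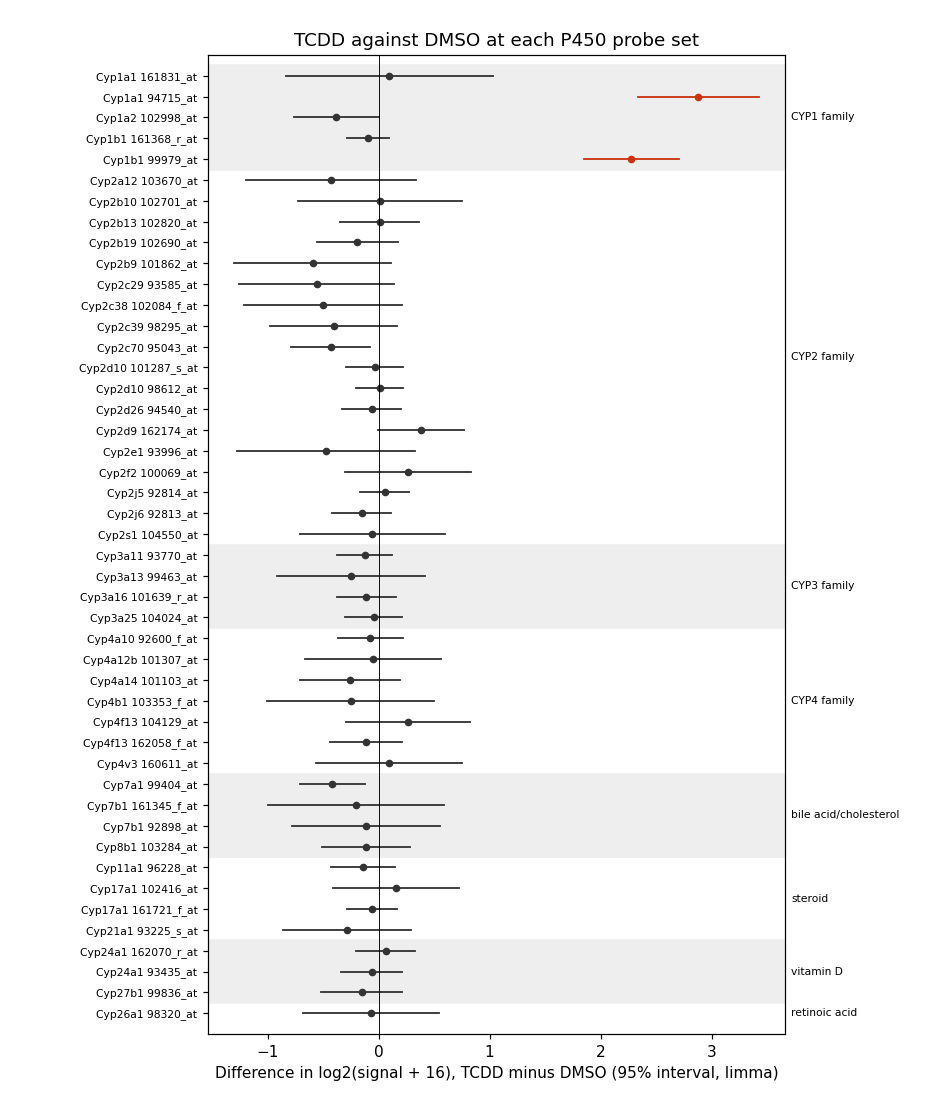
Points are the differences in log2(signal + 16), TCDD minus DMSO, of the 46 P450 probe sets with their 95% intervals from limma; red marks an adjusted p under 0.05. The 2 red intervals, from 1.85 upwards, do not reach those of the other 44 probe sets, whose upper ends are at most 1.03.

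**Figure D3:**
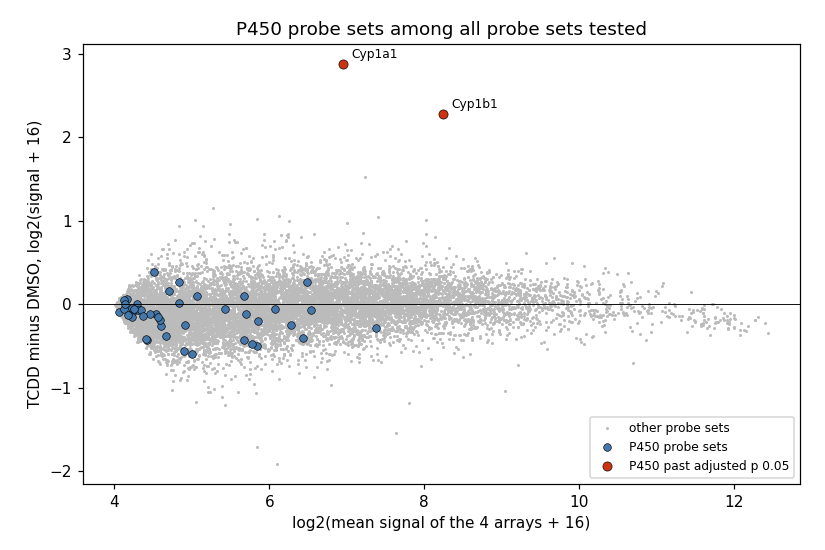
Each point is 1 of 12422 probe sets, with the mean signal of the 4 arrays plus 16 on a log2 axis and the TCDD minus DMSO difference in log2(signal + 16) on the vertical axis. Cyp1a1 and Cyp1b1 lie above all other probe sets, and the other P450 probe sets (blue) lie within the cloud, between -0.60 and 0.38.

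The CYP2 family, enzymes of xenobiotic and fatty acid metabolism, was measured at 18 probe sets of 17 genes. None passed in limma, 6 had a higher and 12 a lower mean log2 signal in TCDD, and their differences lay between -0.60 and 0.38, with a median of -0.11. Cyp2f2, a P450 of the airway that activates naphthalene, gave signals of 55.2 and 77.4 with DMSO, and 78.6 and 84.9 with TCDD. The groups did not overlap, but the gap between them was 1.2 signal units, less than the 22.2 units between the DMSO arrays. Its log2 difference was 0.26 ± 0.24 (SE), and 0.06 without DMSO replicate 1.

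Cyp2c39, an enzyme of the CYP2C subfamily that can oxidise retinoic acid, gave signals of 88.7 and 75.7 with DMSO, and 50.2 and 66.6 with TCDD. Both TCDD signals were lower than both DMSO signals. The log2 difference was -0.41 ± 0.25 (SE) with a limma adjusted p of 0.979, and the difference was -0.31 without DMSO replicate 1. Cyp2s1, described elsewhere as dioxin-inducible, was looked at for that reason and lies outside the naming rule. It gave signals of 30.1 and 25 with DMSO, and 20.3 and 32.2 with TCDD, so the groups overlapped, and its log2 difference was -0.06 (95% interval -0.71 to 0.60). The sign turned with quantile scaling (0.06). Cyp2b10, the usual readout of the receptor CAR and also chosen outside the rule, gave signals of 22.9 and 3.5 with DMSO, and 11 and 12.6 with TCDD, with the TCDD arrays between the DMSO arrays. Its log2 difference was 0.01 ± 0.32 (SE) with all arrays, 0.51 without DMSO replicate 1 and -0.49 without DMSO replicate 2.

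In several members DMSO replicate 1 lay far from the other arrays. At 6 of 46 probe sets (13%) the value of signal + 16 on DMSO replicate 1 was at least 1.5 times that on each of the other 3 arrays, against 3.93% of all probe sets, and on the other 3 arrays there was no such member. The 6, named because of this, were Cyp2a12, Cyp2b9, Cyp2c29, Cyp2c38, Cyp2e1 and Cyp4b1. A mean signal under 50 was more common among the members (82.6%) than among all probe sets (53.4%). The matching share among dim probe sets alone was not counted, so the 13% is not read as a trait of the family. Cyp2e1, the ethanol-oxidising P450, gave signals of 67.8 and 30.1 with DMSO, and 29.3 and 28.1 with TCDD. Apart from DMSO replicate 1 the arrays were close together. The log2 difference of Cyp2e1 was -0.48 ± 0.34 (SE) with all arrays and -0.04 without that one. Cyp2a12 behaved alike, with 58.6 and 28 in DMSO and 26.5 and 26.7 in TCDD, and a difference of -0.43 that became -0.05. Cyp2b9, which had the most negative difference of the family (-0.60 ± 0.30, SE), gave signals of 34.2 and 12 with DMSO, and 10.1 and 7.6 with TCDD, and stood at -0.17 without DMSO replicate 1. Cyp2c29 went from -0.56 to -0.17 and Cyp2c38 from -0.50 to -0.21.

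The 4 probe sets of the CYP3 family, drug-metabolising enzymes of liver and gut, had signals between 0.8 and 25.7. All 4 had a lower mean log2 signal in TCDD, from -0.25 to -0.04, and none passed in limma. The brightest, Cyp3a13, gave signals of 25.7 and 8.7 with DMSO, and 13.3 and 8.9 with TCDD, so the groups overlapped, and its difference of -0.25 became 0.13 without DMSO replicate 1.

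The CYP4 family, which hydroxylates fatty acids at the end of the chain, had 7 probe sets of 6 genes, with differences between -0.26 and 0.26, and none passed in limma. Cyp4b1 (103353_f_at, a probe set of the kind that may match other family members) gave signals of 94.8 and 45.4 with DMSO, and 55.4 and 51.1 with TCDD. Its log2 difference was -0.25 ± 0.32 (SE) with all arrays and 0.17 without DMSO replicate 1, so even its direction rested on that array. Cyp4a12b gave signals of 56.4 and 47.9 with DMSO, and 55.9 and 43.9 with TCDD, and its difference of -0.05 (95% interval -0.66 to 0.56) turned sign with quantile scaling and without DMSO replicate 1. Cyp4v3, 1 of the 4 genes with the core upstream, gave signals of 28.7 and 38.4 with DMSO, and 31.5 and 42.3 with TCDD. Its groups overlapped, and the log2 difference was 0.09 ± 0.28 (SE), or -0.05 without DMSO replicate 1.

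Among P450 genes with roles in development and hormone metabolism, Cyp26a1 breaks down retinoic acid and so limits where this morphogen acts. It gave signals of 67.3 and 89.8 with DMSO, and 60.7 and 88.5 with TCDD. Replicate 1 was lower than replicate 2 in both groups, by 22.5 and 27.8 signal units, and these gaps exceed the difference of 3.95 between the group means. The log2 difference was -0.07 ± 0.26 (SE, 95% interval -0.68 to 0.54, limma adjusted p 0.994). Leaving out DMSO replicate 2 gave 0.10, and leaving out TCDD replicate 1 gave 0.15.

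Steroid hormone synthesis was represented by 4 probe sets of Cyp11a1, Cyp17a1 and Cyp21a1, with differences between -0.29 and 0.16, none past limma's test. Cyp21a1, the steroid 21-hydroxylase gene (93225_s_at, a probe set whose probes can match similar transcripts such as its pseudogene copy), gave signals of 209.3 and 127.3 with DMSO, and 141 and 122 with TCDD. The DMSO replicate 1 signal stood above the other 3. The log2 difference was -0.29 ± 0.25 (SE) with all arrays and 0.04 without DMSO replicate 1. The differences at the 2 probe sets of Cyp17a1, whose enzyme makes androgen precursors, were 0.16 and -0.06, or 0.27 and 0.0042 without DMSO replicate 1.

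For bile acid and cholesterol oxidation, 4 probe sets of Cyp7a1, Cyp7b1 and Cyp8b1 all had lower means in TCDD, from -0.42 to -0.11, and none passed in limma. The brighter probe set of Cyp7b1 (161345_f_at), an oxysterol hydroxylase gene, gave signals of 60.2 and 31.9 with DMSO, and 46.7 and 27.9 with TCDD, with replicate 1 higher in both groups, and a difference of -0.20 that became 0.13 without DMSO replicate 1. Cyp7a1, the rate-limiting enzyme of bile acid synthesis in liver, is named here after its values were seen, as is Cyp2c70, because they were the 2 lower members at an unadjusted limma p under 0.05. Cyp7a1 gave signals of 7.5 and 9.1 with DMSO, and 2.4 and 2 with TCDD, and a log2 difference of -0.42 ± 0.13 (SE, limma adjusted p 0.979), or -0.46 without DMSO replicate 1. Cyp2c70 had 11.4 and 6 with DMSO, and 1.5 and 3 with TCDD, a difference of -0.43 that was -0.27 without DMSO replicate 1. The vitamin D group, Cyp24a1 and Cyp27b1, had 3 probe sets with signals between 0.7 and 10.3 and 0 past limma's test. The brightest, Cyp27b1, which makes the active hormone, had 10.3 and 7.3 with DMSO, and 6.6 and 5.9 with TCDD (log2 difference -0.15 ± 0.16, SE). That difference was -0.07 without DMSO replicate 1, -0.24 without DMSO replicate 2 and -0.02 with quantile scaling.

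By count, the family leaned to lower values in TCDD, and so did the arrays. Of the 46 probe sets 33 had a log2 difference below 0 (71.7%), against 60.7% of all probe sets and 71.1% of those with a mean signal under 50. Without DMSO replicate 1 there were 23 of 46 (50%), against 51.7% of all, and with quantile scaling of the 4 arrays 24 of 46, against 49.9%. The median log2 difference of the members was -0.10, against -0.05 over all probe sets and -0.10 over those with a mean signal under 50. The member median was 0.00 without DMSO replicate 1. The groups did not overlap at 17 members with lower and 4 with higher signals in TCDD, in all 21 of 46 (45.7%) against a background of 31.6%. By direction the background was 20.8% lower and 10.8% higher, or 26.2% and 6.88% among probe sets with a mean signal under 50. With quantile scaling these counts were 9 and 5 (background 15.4% and 14.9%), and without DMSO replicate 1, where fewer pairs have to agree, they were 18 and 12 (background 32.5% and 29.1%). With all arrays as deposited the 4 higher ones were Cyp1a1 94715_at, Cyp1b1 99979_at, Cyp2f2 and Cyp2d9. Cyp2d9 had the largest difference above 0 outside the CYP1 family and is named for that after its values were seen. It gave signals of 6.3 and 1.6 with DMSO, and 8.9 and 10.8 with TCDD (0.38 ± 0.17, SE, limma adjusted p 0.979). Its difference was 0.55 without DMSO replicate 1. A ratio of signal + 16 of at least 1.5 in all 4 array pairs was reached upwards by 2 members, Cyp1a1 and Cyp1b1, against 0.169% of all probe sets, and downwards by 0, against 0.185%.

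Genes that serve the P450 enzymes were looked at as a list of electron carriers, haem synthesis and haem breakdown, with the epoxide hydrolases. Of 23 listed genes 20 were measured, each at its brightest probe set. None passed the limma test in either direction and 0 had an unadjusted limma p under 0.05. The count was 7 higher and 13 lower, and the median log2 difference was -0.01, against -0.05 over all probe sets. The 3 with the smallest p were Ephx2, a soluble epoxide hydrolase gene, and the haem oxygenase genes Hmox2 and Hmox1. Ephx2 gave signals of 4.1 and 8.3 with DMSO, and 8.3 and 15.1 with TCDD, and differed by 0.31 ± 0.20 in log2 (SE). Hmox2 had 74.8 and 54.9 with DMSO, and 42.5 and 45.8 with TCDD, and differed by -0.42 ± 0.26 in log2 (SE). Hmox1, the stress-inducible enzyme, had 261 and 184.5 with DMSO, and 268.7 and 261.6 with TCDD, and differed by 0.25 ± 0.20 in log2 (SE). Without DMSO replicate 1 the differences were 0.18 for Ephx2, -0.24 for Hmox2 and 0.49 for Hmox1, and without DMSO replicate 2 that of Hmox1 was 0.02.

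The 7 probe sets that stand for several P450 genes had signals between 0.7 and 29.9 and log2 differences between -0.34 and 0.27. None passed in limma, so counting them would leave 2 of 53 probe sets past the test.

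**Figure D4:**
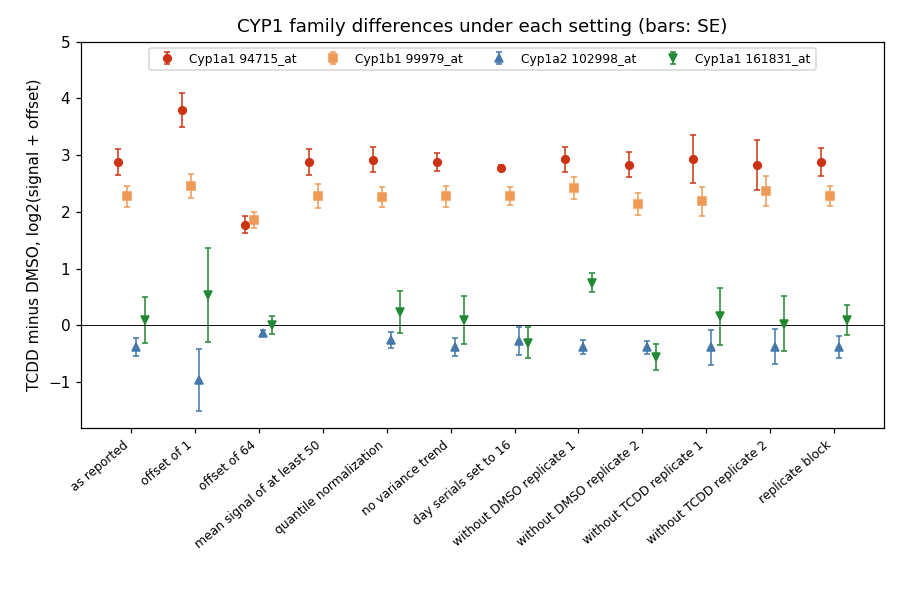
Differences in log2(signal + offset), TCDD minus DMSO, of 4 CYP1 probe sets (points, with SE bars) under the reported settings and 11 others; the offset is 16 unless the label gives another. Cyp1a1 94715_at and Cyp1b1 99979_at stay between 1.78 and 3.79 in all of them, Cyp1a2 is never above 0, and Cyp1a1 161831_at changes sign.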

How the data were processed

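The submitters' processing notes name MAS5. Per the labels, the authors scanned murine U74v2A arrays with Affymetrix Microarray Suite 5.0 and scaled each to a target signal of 100, and the deposited values are hybridisation intensity signals, 1 per probe set and array. No probe-level data or detection calls were used here, and a genome build is not given in the sources used here. Of 49952 deposited cells, 18515 (37.1%) hold a spreadsheet day serial, 38718 to 38990, in place of a signal, and were turned back with the day as whole part and the month as decimal. Of the members' 184 cells, 116 (63%) were such serials, all restored to 31.8 or less. The repaired arrays each have a mean of 100.05 once the outer 2% on either side are dropped.

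Symbols came from the platform annotation, checked by Entrez ID against RefSeq's GRCm38.p6 gene table (10839 of 10855 matched). limma 3.58.1 in R 4.3.3 (lmFit, eBayes with a variance trend) was fitted on log2(signal + 16) over 12422 non-control probe sets, with no filter on dim ones, and p-values were adjusted by Benjamini-Hochberg with a threshold of 0.05. The fit was tested on simulated data. An exact permutation test of 2 arrays against 2 could not reach the threshold and was not run. Values on each array are given for the CYP1 family, members past the test or with a mean signal of at least 50, members with a ratio of 1.5 or more in all pairs, Cyp26a1, and the brightest member of each role group; the pathway list gives its 3 smallest p. The members and lists were chosen with earlier results of these data known. Alternatives were other offsets, a filter, quantile scaling, no trend, constant serials, each array left out, a replicate block, 1 probe set per gene and probe sets of several genes.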

Additional observations from a re-analysis of the deposited data

How the results depend on the processing

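With 2 arrays per group the adjusted p-values moved more than the differences did. An offset of 1 kept both calls, and the median log2 difference of the P450 members was then -0.30. The median over all probe sets was not taken at that offset, so the -0.30 is not read as a trait of the family. With an offset of 64 none of the 46 members and 0 of all probe sets passed limma (differences of 1.78 for Cyp1a1 and 1.86 for Cyp1b1, adjusted p 0.0591 for both). Without the variance trend 0 and 0 passed (2.88 and 2.28). With day serials set to 16, which makes many variances 0 by construction, 99 probe sets passed, 1 of them a member (Cyp1a1; Cyp1b1 at 2.28 had an adjusted p of 0.172), and the groups did not overlap at 7 members. With a mean signal of at least 50, 4 probe sets of 5783 passed, Cyp1a1 and Cyp1b1 among them. Cyp1a1 94715_at met this filter only through TCDD, at 194.8 and 210.5 against 14.7 and 12.7 with DMSO. Its call under the filter is therefore no further support. Of the 8 members left 4 did not overlap, Cyp1a1 94715_at and Cyp1b1 99979_at among them. The share over all probe sets was counted neither here nor with constant serials. The counts of 4 and 7 are thus not read as a trait of the family.

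Leaving out 1 array gave 0 to 1 members and 0 to 1 probe sets past limma, differences of 2.83 to 2.93 for Cyp1a1 and 2.13 to 2.42 for Cyp1b1, member medians of -0.19 to 0.00, and 26 to 41 members whose groups did not overlap, where fewer pairs have to agree (56.5% to 89.1% of the members, and 61.6% to 74% of all probe sets). These fits assume that the lone array of a group varies like the arrays of the other. With the replicate block 17 probe sets passed, Cyp1a1 and Cyp1b1 being the members among them. The labels do not tie equal replicate numbers together, and replicate 1 minus 2 correlated at r = 0.31 between the groups over all probe sets. The block changed no call of a member.

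None of the other P450 probe sets named passed under the alternatives run, but several changed sign; the cause was not tested. Leaving out 1 array gave, from DMSO replicate 2 to DMSO replicate 1, -0.56 to 0.75 for Cyp1a1 161831_at, -0.61 to 0.039 for Cyp21a1, -0.49 to 0.51 for Cyp2b10 (-0.03 without TCDD replicate 2), -0.63 to 0.13 for Cyp3a13, -0.68 to 0.17 for Cyp4b1 and -0.54 to 0.13 for Cyp7b1 161345_f_at. From TCDD replicate 2 to TCDD replicate 1 it gave -0.29 to 0.15 for Cyp26a1 and -0.26 to 0.15 for Cyp2s1, and in the opposite order -0.18 to 0.080 for Cyp4a12b. With constant serials Cyp1a1 161831_at was at -0.30, Cyp2b10 at -0.12 and Cyp2s1 at 0.12. With quantile scaling Cyp2s1 was at 0.064 and Cyp4a12b at 0.0032, and with an offset of 64 Cyp2b10 was at -0.015. Cyp4v3 was at -0.05 and Cyp17a1 161721_f_at at 0.0042 without DMSO replicate 1.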
